A study of Mus musculus with 24 samples.

Results

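Bile acids are made from cholesterol in hepatocytes and are pumped into bile. In the classic pathway Cyp7a1 is the rate-limiting cholesterol hydroxylase, and Cyp8b1 adds the hydroxyl group that turns the product into cholic acid. In the alternative pathway Cyp27a1, a mitochondrial hydroxylase, makes oxysterols and oxidises the side chain, and Cyp7b1 and Cyp39a1 hydroxylate oxysterols. Akr1d1 reduces the steroid ring, Slc27a5 activates bile acids with coenzyme A, and Baat joins them to an amino acid. Nr0b2 is the repressor that the bile acid receptor induces, and Abcb11 is the bile salt export pump of the canalicular membrane. The expression of these 10 genes, taken by their symbols from the 55421 genes of the count and FPKM tables, was followed in mouse hepatocytes under a high-fat diet and rapamycin.

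Hepatocytes were isolated by collagenase perfusion of the liver and a density gradient from C57BL/6J mice, and polyadenylated RNA was sequenced. Treatment began at 4 months of age, and from 18 months the mice were given, for 9 weeks, either the normal diet again or a diet whose fat supplied 60% of calories. ND+veh (n = 8) received normal diet and vehicle, HFD+veh (n = 7) received high-fat diet and vehicle, and HFD+eRapa (n = 9) received high-fat diet with encapsulated rapamycin at 42 ppm, an inhibitor of the kinase mTOR. The HFD+eRapa mice had thus already been on rapamycin with normal diet before the high-fat diet began, and no group on normal diet with rapamycin was analysed here. The labels number the samples as replicates without tying them to animals, so p-values measure the spread between these samples. The hour at which the livers were taken is not given in the sources used here.

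Libraries held 17739252 to 25945134 counts, and all carry the same batch label. Values per library are CPM, the counts scaled by the library size after TMM adjustment, and a gene is termed changed where edgeR's quasi-likelihood test gave an adjusted p under 0.05 over the 13847 genes tested. The 9 hepatocyte markers were all among the genes tested, at 53162 to 164776 summed CPM. Of these 9, 1 rose and 1 fell in HFD+veh against ND+veh, and 2 rose and 1 fell in HFD+eRapa against HFD+veh. The 8 macrophage markers together had a median of 232 CPM in ND+veh (39.5 to 1230), 2273 CPM in HFD+veh (156 to 5221) and 186 CPM in HFD+eRapa (14.2 to 1053). Of these markers, 3 rose in HFD+veh against ND+veh and 6 fell in HFD+eRapa against HFD+veh. All 7 endothelial and all 7 stellate cell markers fell in the latter comparison too. The 7 pericentral hepatocyte markers had medians of 6846, 1991 and 7410 summed CPM in ND+veh, HFD+veh and HFD+eRapa, and the 7 periportal markers had 5025, 9749 and 5838. Of the pericentral markers, 4 fell in HFD+veh against ND+veh and 6 rose in HFD+eRapa against HFD+veh. Of the periportal markers, 5 rose in the first of these comparisons and 3 fell in the second. Of all genes tested, 16.0% rose and 9.86% fell in the first, and 10.9% rose and 21.1% fell in the second. ND+veh replicate 4 had the lowest hepatocyte marker sum of its group (59188 CPM) and HFD+veh replicate 6 had the highest macrophage marker sum of all (5221 CPM). The part of other cell types in the results below was not tested, and calls of the 10 genes that changed with an immune marker score as a covariate are given beside each gene. In bulk RNA, fewer cells of a type and less RNA per cell cannot be told apart.

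RefSeq promoter sequences (GRCm38.p6) were found for 5 of the 10 genes. The 250 bases before the start are printed for Cyp8b1 and Cyp27a1, whose levels moved together within the vehicle groups but not in HFD+eRapa. Those of Abcb11, the exporter that was lower in both high-fat groups, are printed too. Capitals mark matches, on either strand, to a searched motif.
Cyp8b1: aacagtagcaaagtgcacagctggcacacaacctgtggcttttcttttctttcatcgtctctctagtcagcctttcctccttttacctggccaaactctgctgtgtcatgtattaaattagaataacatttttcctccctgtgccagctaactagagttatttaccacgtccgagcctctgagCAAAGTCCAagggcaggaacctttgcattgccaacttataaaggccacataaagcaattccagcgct
Cyp27a1: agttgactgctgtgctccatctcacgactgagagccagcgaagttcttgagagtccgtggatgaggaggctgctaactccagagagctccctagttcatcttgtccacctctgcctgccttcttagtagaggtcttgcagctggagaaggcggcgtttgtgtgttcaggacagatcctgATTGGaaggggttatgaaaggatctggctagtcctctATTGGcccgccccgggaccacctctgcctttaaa
Abcb11: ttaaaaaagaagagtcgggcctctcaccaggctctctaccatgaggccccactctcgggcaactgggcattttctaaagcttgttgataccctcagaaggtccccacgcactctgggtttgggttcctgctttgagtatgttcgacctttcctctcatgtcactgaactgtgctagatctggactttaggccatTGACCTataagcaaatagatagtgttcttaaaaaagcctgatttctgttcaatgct
The Cyp8b1 stretch is chr9:121916306-121916555 on the minus strand, that of Cyp27a1 is chr1:74713285-74713534 on the plus strand, and that of Abcb11 is chr2:69342617-69342866 on the minus strand. Cyp8b1 held the HNF4A motif CAAAGTCCA 67 to 59 bases before the start, and 0.384% of all 32851 promoters of this length hold it. Cyp27a1 held the reverse complement of CCAAT at 71 to 67 and again at 34 to 30 bases before the start, a motif found in 33.8% of promoters. Abcb11 held TGACCT, the reverse complement of the nuclear receptor half-site AGGTCA, at 56 to 51 bases before the start, and that half-site is in 14.0% of promoters. The half-site also occurred in the Akr1d1 promoter at 232 to 227 and at 210 to 205 bases before the start. Nr0b2 held the E-box CACGTG at 195 to 190 bases and the palindrome TTCNNNGAA at 91 to 83 bases before the start, with shares of 6.02% and 7.02% of all promoters. The NR5A2 motif CAAGGTCA and the D-box TTATGTAA were not in these 5 windows. Neither was an exact inverted repeat of the half-site with a spacer of 1 base (IR1). Of all promoters, 1.33%, 0.819% and 0.00609% hold these motifs. Only exact letters were searched, so sites that differ from a motif by a letter were not sought. In Abcb11, AGGCCAT stands directly before TGACCT, which is the IR1 but for 1 letter. The NR5A2 motif contains the half-site, as does the IR1, so these matches can overlap.

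In FPKM, the authors' values scaled by transcript length and depth, Slc27a5 was the highest of the 10 genes in each group, with a median of 558 FPKM in ND+veh, 457 FPKM in HFD+veh and 454 FPKM in HFD+eRapa. Cyp27a1 was next in ND+veh at 342 FPKM, ahead of Abcb11 at 226 FPKM, with ranges that overlapped (206 to 434 and 138 to 252 FPKM). In HFD+veh Cyp27a1 stood at 119 FPKM, within the range of Cyp8b1 (131 FPKM), Baat (127 FPKM) and Abcb11 (110 FPKM). In HFD+eRapa it was again second, at 242 FPKM, close to Cyp8b1 at 232 FPKM. Cyp7a1 had the lowest median of the 10 genes in ND+veh (7.43 FPKM) and in HFD+veh (12.2 FPKM), but its ranges of 3.62 to 61.2 and 2.604 to 37.5 FPKM crossed those of Cyp39a1 and Nr0b2. Cyp39a1 was lowest in HFD+eRapa, with 2.83 FPKM and a highest library of 8.21 FPKM, below every other of the 10 genes there.

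**Figure D1:**
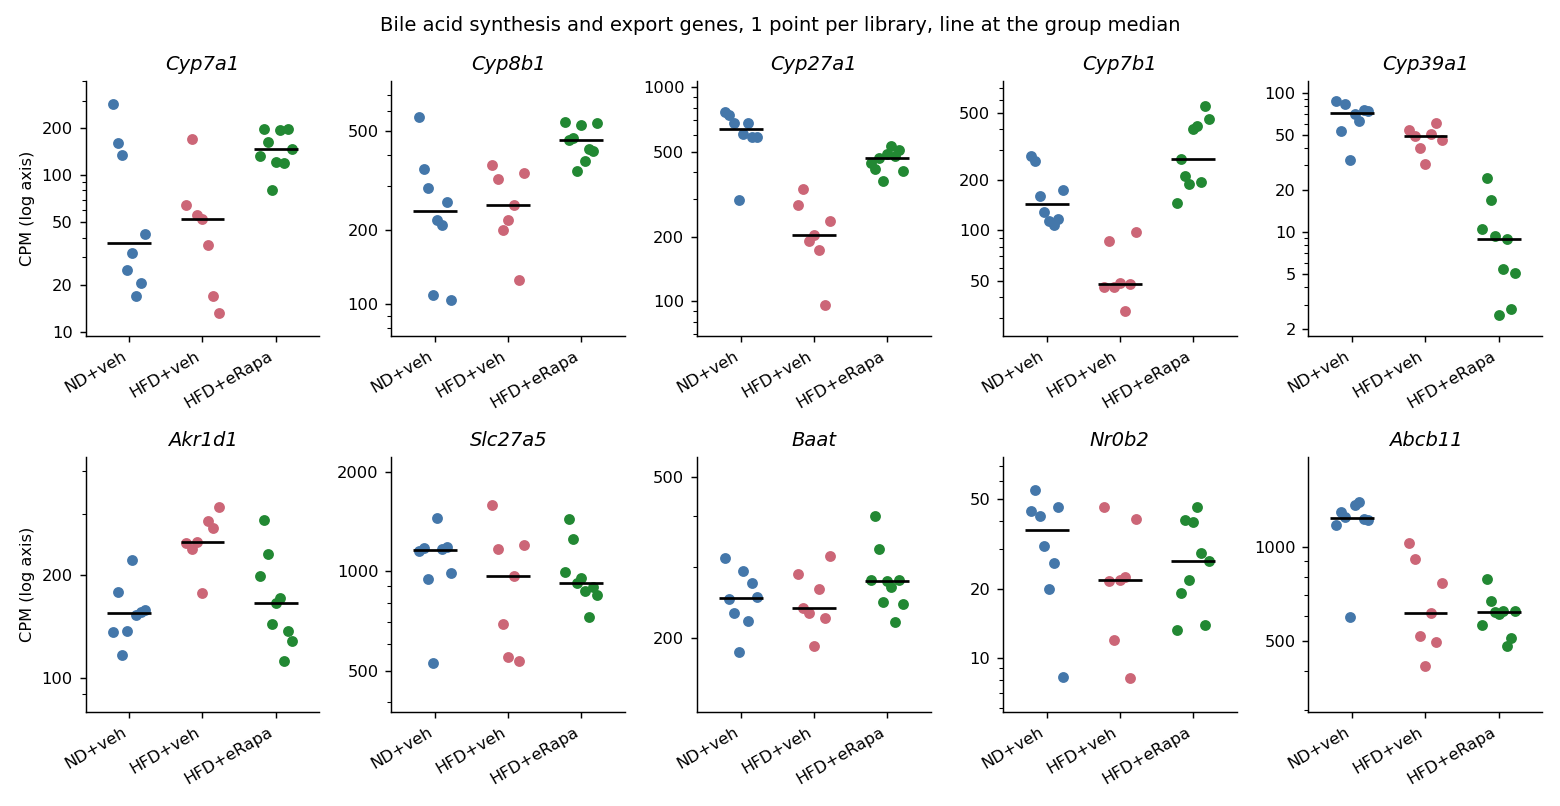
Levels of the 10 genes in CPM (log axis) by diet and treatment group, 1 point per library, with a line at the group median. The HFD+veh libraries lie below all ND+veh libraries for Cyp7b1, the HFD+eRapa libraries lie below all others for Cyp39a1, and Cyp7a1 in ND+veh splits into 3 libraries at 136 CPM or more and 5 at 42.1 CPM or less.

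HFD+veh and ND+veh were compared to see the effect of the diet alone. Against ND+veh, HFD+veh had lower Cyp27a1, Cyp7b1 and Abcb11 and higher Akr1d1, while neither enzyme of the classic pathway passed the test in edgeR, DESeq2 or limma, at an adjusted or an unadjusted p under 0.05. That is 3 of 10 genes lower and 1 of 10 higher, where 9.86% of all genes tested were lower and 16.0% higher. The groups did not overlap for 1 of the 10, Cyp7b1, against 2.44% of all genes. The second comparison asked what rapamycin did on the high-fat diet. HFD+eRapa had higher Cyp7b1, Cyp27a1 and Cyp8b1 and lower Cyp39a1 and Akr1d1 than HFD+veh, 3 of 10 higher (10.9% of all genes) and 2 of 10 lower (21.1%). Here the groups did not overlap for Cyp27a1, Cyp7b1 and Cyp39a1, 3 of 10 against 2.59% of all genes. In the third comparison, HFD+eRapa against ND+veh, Cyp7b1 and Cyp8b1 were higher and Cyp39a1 and Abcb11 lower, 2 of 10 in each direction (6.93% and 6.54% of all genes). Only Cyp39a1 of the 10 did not overlap there, against 3.37% of all genes. The first and second comparisons share the HFD+veh samples, and the others share the ND+veh or the HFD+eRapa samples. Without both ND+veh replicate 4 and HFD+veh replicate 6, 4, 4 and 3 of the 10 genes changed in these comparisons. Over all genes, 2300, 3352 and 2050 of 13791 changed in that fit.

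**Figure D2:**
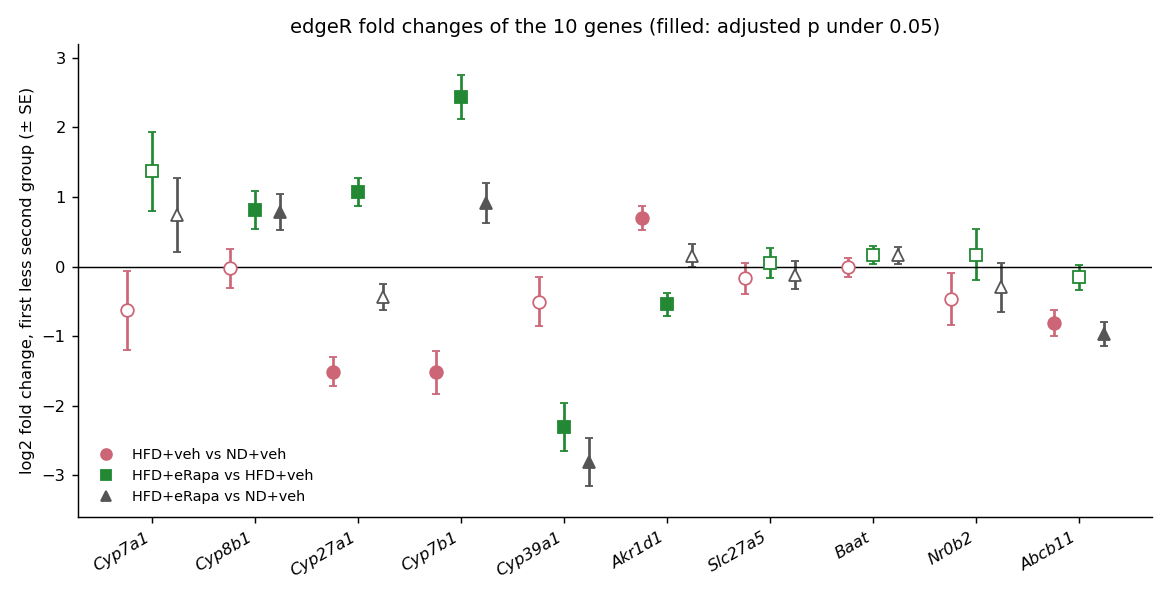
Log2 fold changes from edgeR (first group less second, bars ± SE) of the 10 genes in the 3 comparisons; filled symbols have an adjusted p under 0.05. Cyp7b1 fell by 1.52 with the diet and rose by 2.43 with rapamycin on it, and Cyp39a1 fell by 2.31 and 2.81 in HFD+eRapa against either vehicle group.

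Cyp7b1 fell with the diet and was higher with rapamycin than in either vehicle group. It had 108 CPM in the lowest, 144 CPM in the median and 276 CPM in the highest ND+veh library, against 33.1, 48.2 and 98.0 CPM in HFD+veh and 145, 265 and 553 CPM in HFD+eRapa. All 7 HFD+veh libraries were below all 8 ND+veh libraries and below all 9 HFD+eRapa libraries. The fold change was 2.87 downward with the diet (log2 -1.52, SE 0.31, edgeR adjusted p = 0.0018) and 5.41 upward with rapamycin on the diet (log2 2.43, SE 0.31, edgeR adjusted p = 2.0e-05). HFD+eRapa was also above ND+veh, by 0.91 on the log2 scale (SE 0.28, edgeR adjusted p = 0.031), with 4 of 9 libraries above every ND+veh library. That last call was lost when any of ND+veh replicates 3 to 7 or HFD+eRapa replicates 5, 6, 8 and 9 was left out (edgeR adjusted p 0.052 to 0.073). It was also lost with no filter on low counts and with the clock score described below as covariate (edgeR adjusted p = 0.075 and 0.26), without both ND+veh replicate 4 and HFD+veh replicate 6 (edgeR adjusted p = 0.058) and with limma on log2(FPKM + 1) (adjusted p = 0.097). Cyp7b1 (ENSMUSG00000039519.6) lies at chr3:18071950-18243338 on the minus strand and overlaps a small nuclear RNA gene on that strand.

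Cyp27a1 fell with the diet and was higher with rapamycin on the diet than without it. Its CPM ran from 296 (lowest) through 640 (median) to 764 (highest) in ND+veh, from 96.4 through 205 to 335 in HFD+veh, and from 364 through 468 to 530 in HFD+eRapa. Apart from ND+veh replicate 4, at 296 CPM, no ND+veh library was under 588 CPM, and no HFD+veh library reached the lowest HFD+eRapa library. The log2 fold change was -1.51 with the diet (SE 0.20, edgeR adjusted p = 3.2e-05) and 1.07 with rapamycin on it (SE 0.20, edgeR adjusted p = 0.00054). HFD+eRapa differed from ND+veh by -0.44 on the log2 scale (SE 0.18, edgeR adjusted p = 0.12) and was below the ND+veh median in 9 of 9 libraries. Without ND+veh replicate 4 that difference was -0.56 with an edgeR adjusted p of 0.028, and without HFD+veh replicate 6 it was -0.45 with 0.045. It also passed with the 2 groups fitted alone, with the immune score and with the clock score described below as covariates, and without both of these libraries (edgeR adjusted p = 0.038, 0.022, 0.010 and 0.0061). HFD+veh replicate 6, with the highest macrophage marker sum, was the lowest library for Cyp27a1 (96.4 CPM), and with the immune score as covariate the first 2 calls held (log2 -1.24 and 0.76, edgeR adjusted p = 4.8e-05 and 0.0080). Cyp27a1 (ENSMUSG00000026170.6) is at chr1:74713574-74737892 on the plus strand, with no other gene annotated over it.

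Cyp39a1 was lower with rapamycin than in either vehicle group. ND+veh libraries had 32.8 (lowest), 71.9 (median) and 86.5 CPM (highest), and HFD+veh libraries had 30.8, 49.2 and 60.1 CPM. In HFD+eRapa the lowest was 2.51, the median 8.87 and the highest 24.4 CPM. No HFD+eRapa library reached the lowest library of either vehicle group. The log2 fold change was -2.31 against HFD+veh (SE 0.35, edgeR adjusted p = 0.00010) and -2.81 against ND+veh (SE 0.35, edgeR adjusted p = 9.1e-06), or 4.95-fold and 7.02-fold lower. Between HFD+veh and ND+veh it was -0.51 (SE 0.35, edgeR adjusted p = 0.29). Within HFD+eRapa the level spanned 9.70-fold, with replicates 2 and 3 at 24.4 and 17.0 CPM and the other 7 libraries at 2.51 to 10.5 CPM. Against HFD+veh, 1 enzyme of the alternative pathway thus fell while the other 2 rose. Cyp39a1 (ENSMUSG00000023963.10) spans chr17:43667425-43751431 on the plus strand and overlaps a small nuclear RNA gene on the same strand.

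In the classic pathway, Cyp7a1 was marked by its spread between animals. Its levels were 17.0 (lowest), 36.9 (median) and 286 CPM (highest) in ND+veh, 13.2, 52.5 and 169 CPM in HFD+veh and 80.2, 148 and 199 CPM in HFD+eRapa. This is a 16.8-fold range in ND+veh, a 12.9-fold range in HFD+veh and a 2.48-fold range in HFD+eRapa. In ND+veh, replicates 1 to 3 had 136 to 286 CPM and the other 5 libraries had 17.0 to 42.1 CPM. The macrophage marker sum split the same libraries, at 39.5 to 116 CPM in replicates 1 to 3 and 188 to 1230 CPM in the other 5. Cyp7a1 did not pass the test in any of the comparisons. The log2 fold change was -0.63 for HFD+veh against ND+veh (SE 0.57, edgeR adjusted p = 0.43), 1.37 for HFD+eRapa against HFD+veh (SE 0.57, edgeR adjusted p = 0.069) and 0.74 for HFD+eRapa against ND+veh (SE 0.53, edgeR adjusted p = 0.41). With the immune score as covariate, the first of these was 0.38 (edgeR adjusted p = 0.74). All 9 HFD+eRapa libraries were above the median of each vehicle group. The difference from HFD+veh passed the threshold with DESeq2 (log2 1.36, adjusted p = 0.035), with limma on log2(FPKM + 1) (log2 1.69, adjusted p = 0.016) and, in edgeR, with the 2 groups fitted alone (log2 1.37, adjusted p = 0.027), without HFD+veh replicate 2 (log2 1.92, adjusted p = 0.011) or without ND+veh replicate 1 (log2 1.37, adjusted p = 0.047). The limma fit used FPKM, in which HFD+eRapa replicate 4 had 45.3, the highest of its group, though its 80.2 CPM were the lowest. Cyp7a1 (ENSMUSG00000028240.2) is at chr4:6265612-6275633 on the minus strand.

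Cyp7a1 is a rhythmic gene under the control of clock output factors, and such genes were listed beside it. Of 11 clock-controlled genes tested, 7 passed the edgeR test for HFD+veh against ND+veh, as did 6 for HFD+eRapa against ND+veh. Dbp, Tef, Nr1d2, Per3 and Ciart rose in both, by 0.99 to 3.36 in the first and 1.11 to 3.08 in the second on the log2 scale. Arntl fell by 1.06 in each, and Nfil3 by 1.25 in the first. DESeq2 called 7 and 6 of the 11 as well, and limma on log2(FPKM + 1) called 4 in each. Of all 13847 genes, edgeR called 16.0% higher and 9.86% lower in the first and 6.93% and 6.54% in the second. DESeq2 called 4101 and 2179 of these genes, and limma 2701 and 1444. Between HFD+eRapa and HFD+veh, edgeR and DESeq2 each called 0 of the 11, with 0 at an unadjusted p under 0.05 in both. There limma on log2(FPKM + 1) called 0, with 1 at an unadjusted p under 0.05. Of all genes, edgeR called 10.9% higher and 21.1% lower in that comparison. Dbp, a transcription factor of the clock output, had 2.55 to 21.6 CPM in ND+veh replicates 1 to 3 and 0.664 to 2.30 CPM in the other 5 ND+veh libraries. It had 1.36 to 106 CPM in HFD+veh and 3.94 to 117 CPM in HFD+eRapa. The order of both genes did not match throughout: ND+veh replicate 1 had the highest Cyp7a1 (286 CPM) with Dbp at 2.55 CPM, close to the 2.30 CPM of replicate 4, whose Cyp7a1 was 24.7 CPM. In HFD+veh the library with the lowest Cyp7a1 (13.2 CPM) had the lowest Dbp, while in HFD+eRapa replicate 2 had 197 CPM of Cyp7a1 with 6.54 CPM of Dbp, and replicate 7 had 119 CPM with 55.1 CPM. A clock score (mean z-score of 8 of these genes) as a covariate was an alternative added after the data were seen. With it, the Cyp7a1 difference between HFD+veh and ND+veh was -1.44 on the log2 scale (edgeR adjusted p = 0.013). That between HFD+eRapa and HFD+veh was 1.48 (edgeR adjusted p = 0.010). Of all 13847 genes, 6437 passed in the first and 4194 in the second of these fits, against 3584 and 4432 without the score. In ND+veh, Dbp and the macrophage marker sum both split the libraries as Cyp7a1 did, so their parts cannot be told apart there. Whether the hour of collection differed between animals or groups was not tested.

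**Figure D3:**
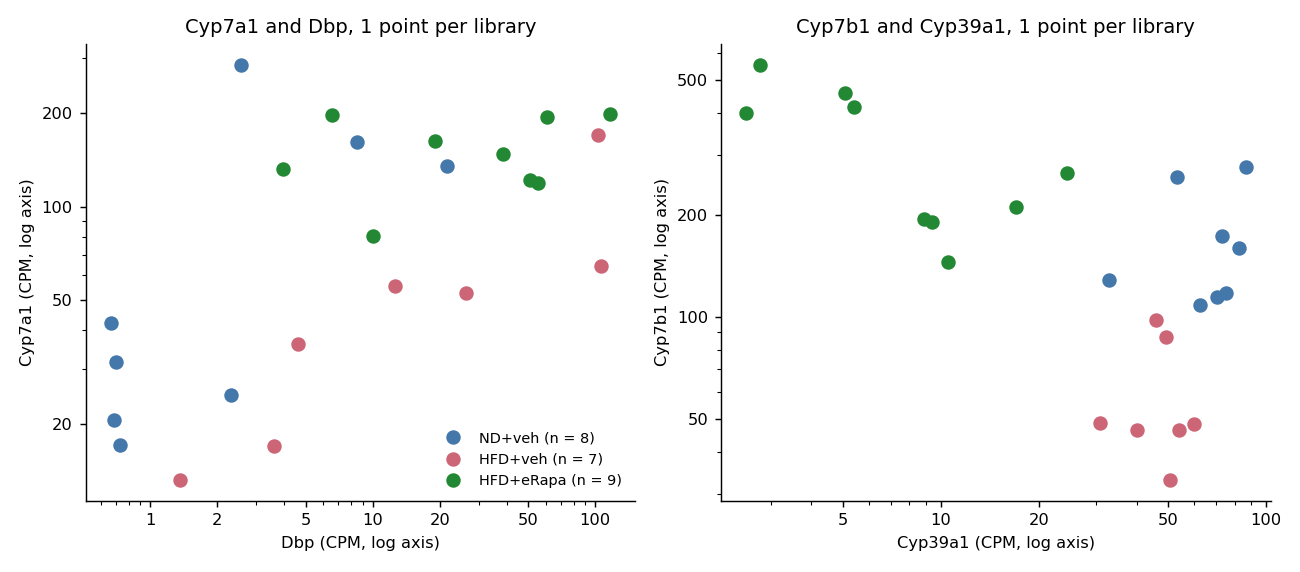
Left, Cyp7a1 against the clock output gene Dbp, and right, Cyp7b1 against Cyp39a1, both in CPM on log axes with 1 point per library. At the lower left sit 5 ND+veh libraries, with Dbp at or under 2.30 CPM and Cyp7a1 at or under 42.1 CPM, together with HFD+veh replicate 7 (1.36 and 13.2 CPM), and the 9 HFD+eRapa libraries sit apart on the right-hand plot with Cyp39a1 at or under 24.4 CPM and Cyp7b1 at or above 145 CPM.

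Cyp8b1 did not differ with the diet beyond the spread but was higher with rapamycin. ND+veh libraries had 104 (lowest), 239 (median) and 569 CPM (highest), HFD+veh had 126, 251 and 364 CPM, and HFD+eRapa had 343, 461 and 542 CPM. Of 9 HFD+eRapa libraries, 8 were above every HFD+veh library, and ND+veh replicate 1, at 569 CPM, was above them all. The log2 fold change was -0.03 for HFD+veh against ND+veh (SE 0.28, edgeR adjusted p = 0.95), 0.81 for HFD+eRapa against HFD+veh (SE 0.27, edgeR adjusted p = 0.025) and 0.79 for HFD+eRapa against ND+veh (SE 0.26, edgeR adjusted p = 0.046). Adjusted for an immune score, the mean z-score of 13 macrophage, lymphocyte and neutrophil markers, the second was 0.36 (edgeR adjusted p = 0.42), and without HFD+veh replicate 3, 4 or 6 its adjusted p was 0.055, 0.052 or 0.060. The third kept its call only without ND+veh replicate 1 or 2, HFD+veh replicate 1, 2, 6 or 7 or HFD+eRapa replicate 4, and its adjusted p was 0.052 to 0.091 without any of the other 17 libraries. It was lost as well with no filter on low counts and with the clock score as covariate (edgeR adjusted p = 0.10 and 0.18), and without both ND+veh replicate 4 and HFD+veh replicate 6 (log2 0.68, edgeR adjusted p = 0.056). Cyp8b1 (ENSMUSG00000050445.4) is a gene of 1 transcript at chr9:121914356-121916305 on the minus strand.

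Among the genes of ring reduction and conjugation, Akr1d1 moved and the other 2 did not pass the test. Akr1d1 had 117 (lowest), 154 (median) and 221 CPM (highest) in ND+veh, 177, 249 and 315 CPM in HFD+veh and 112, 165 and 289 CPM in HFD+eRapa. Of 7 HFD+veh libraries, 6 were above every ND+veh library. It rose by 0.70 on the log2 scale with the diet (SE 0.17, edgeR adjusted p = 0.0071) and fell by 0.54 with rapamycin on it (SE 0.17, edgeR adjusted p = 0.017). Adjusting for the immune score ended both calls (log2 0.58 and -0.41, edgeR adjusted p = 0.055 and 0.20), and the second also failed without HFD+veh replicate 6 (edgeR adjusted p = 0.052). A processed pseudogene on the same strand overlaps Akr1d1 (ENSMUSG00000038641.12, chr6:37530173-37568815), so the split of reads between them is uncertain.

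Slc27a5 and Baat did not pass the test in any comparison. Slc27a5 (ENSMUSG00000030382.15, chr7:12988346-12998192) had medians of 1163, 966 and 921 CPM in ND+veh, HFD+veh and HFD+eRapa, with ranges of 525.5 to 1449, 535 to 1592 and 725 to 1441 CPM. Its log2 fold changes in the 3 comparisons were -0.17, 0.05 and -0.12 (SE 0.21 to 0.22, edgeR adjusted p 0.60 to 0.89). Baat (ENSMUSG00000039653.9, chr4:49489422-49506557) had medians of 251, 238 and 277 CPM, with a highest library 1.66 to 1.82 times the lowest within a group. Its log2 fold changes were -0.01, 0.17 and 0.16 (SE 0.12 to 0.13, edgeR adjusted p 0.32 to 0.96).

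Abcb11 was lower on the high-fat diet whether or not rapamycin was given. It had 595 (lowest), 1242 (median) and 1395 CPM (highest) in ND+veh, 414, 616 and 1031 CPM in HFD+veh and 481, 618 and 790 CPM in HFD+eRapa. Leaving ND+veh replicate 4 aside, at 595 CPM, the lowest ND+veh library had 1173 CPM and the highest library on the high-fat diet 1031 CPM. The log2 fold change was -0.81 for HFD+veh (SE 0.19, edgeR adjusted p = 0.0043) and -0.97 for HFD+eRapa (SE 0.17, edgeR adjusted p = 0.00045) against ND+veh, and -0.16 between them (SE 0.18, edgeR adjusted p = 0.54). An antisense gene and a processed pseudogene overlap Abcb11 (ENSMUSG00000027048.15, chr2:69238282-69342616, minus strand), and whether the counting used strand is not given in the sources used here.

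The repressor Nr0b2 did not pass the test in any comparison. Its CPM ran from 8.25 through 36.5 to 54.8 in ND+veh, from 8.10 through 22.0 to 46.2 in HFD+veh and from 13.2 through 26.5 to 46.3 in HFD+eRapa (lowest, median and highest). The 3 log2 fold changes were -0.46, 0.17 and -0.29 (SE 0.35 to 0.38, edgeR adjusted p 0.37 to 0.76). Within a group its level spanned 3.52-fold to 6.64-fold, more than that of Abcb11 or Slc27a5. Nr0b2 (ENSMUSG00000037583.2) has 1 transcript, at chr4:133553376-133556536 on the plus strand.

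The level of each classic enzyme relative to Cyp7b1 was described per library by their ratio in FPKM, without a test. Cyp8b1 stood at 0.620 to 2.19 times Cyp7b1 in ND+veh (median 1.90), at 2.74 to 7.999 times in HFD+veh (median 4.66) and at 0.757 to 3.89 times in HFD+eRapa (median 1.86). All 7 HFD+veh libraries exceeded all 8 ND+veh libraries, and 1 HFD+eRapa library, replicate 1, fell within the HFD+veh range. Cyp7a1 was below Cyp7b1 in every library, by 9.62-fold at the median in ND+veh, 2.14-fold in HFD+veh and 3.97-fold in HFD+eRapa. Its ratio to Cyp7b1 ran from 0.0640 to 0.419 in ND+veh, from 0.0558 to 0.766 in HFD+veh and from 0.127 to 0.483 in HFD+eRapa, and these ranges overlapped. The highest of the last group, replicate 4, is the library in which Cyp7a1 had 0.565 FPKM per CPM, against 0.180 to 0.259 in the other 23 libraries. On CPM, which are not scaled by length, Cyp7a1 exceeded Cyp7b1 at the HFD+veh median, by 0.12 on the log2 scale. Relative to Cyp39a1, the other hydroxylase of oxysterols, the order of the groups was another one. Cyp8b1 stood at 1.91 to 8.43 times Cyp39a1 in ND+veh (median 4.38), at 2.77 to 9.85 times in HFD+veh (median 8.75) and at 24.4 to 256.05 times in HFD+eRapa (median 64.7), with no overlap of HFD+eRapa and either vehicle group. The HFD+eRapa libraries were thus closer to ND+veh than HFD+veh was in the median ratio to Cyp7b1, and above both vehicle groups in the ratio to Cyp39a1.

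**Figure D4:**
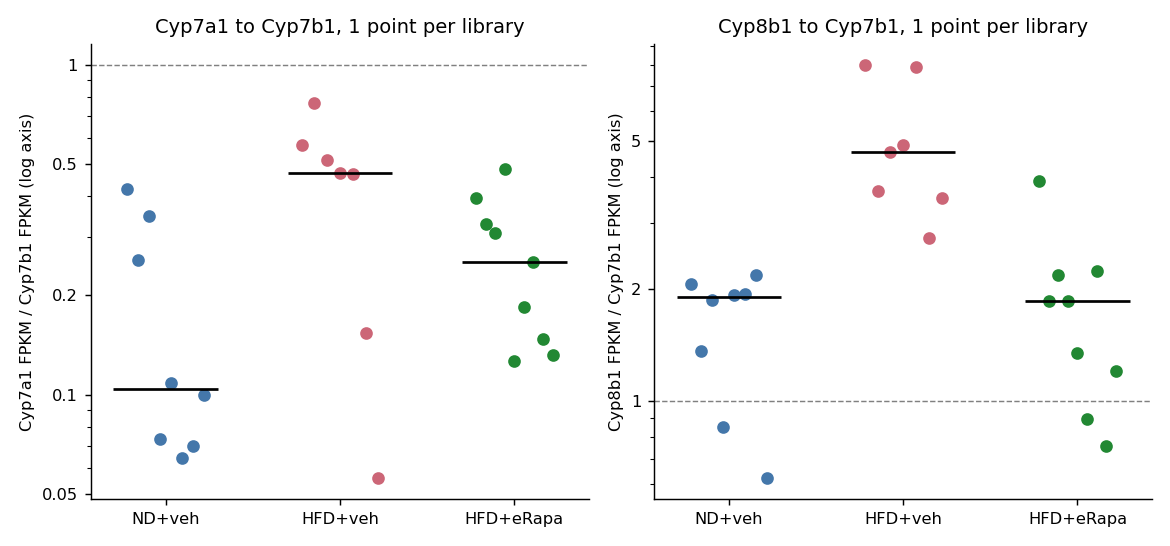
Ratio of Cyp7a1 (left) and Cyp8b1 (right) to Cyp7b1 in FPKM per library (log axis), with lines at the group medians and a dashed line at equal FPKM. The Cyp8b1 ratio was 2.74 or more in every HFD+veh library and 2.19 or less in every ND+veh library.

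Within groups, the 10 genes rose and fell together from animal to animal more often than in opposition. How often other genes do so was not computed, so this is not read as particular to these 10. After group means were subtracted, 17 of 45 pairs were correlated on log2 CPM at an adjusted permutation p under 0.05 over the 45 pairs, 17 positive and 0 negative (24 libraries, 2-sided, 100000 permutations within groups). The rank correlation also passed for 8 of these 17, and 13 kept an r of at least 0.5 without the 2 libraries farthest from the median. Slc27a5 and Abcb11 were the closest pair, with r = 0.93 (permutation p = 1e-05, the smallest these permutations can give, adjusted 0.00045), rho = 0.86 (adjusted permutation p = 0.00045) and r = 0.90 without the 2 farthest libraries. Slc27a5 and Baat had r = 0.81 (permutation p = 3.0e-05, adjusted 0.00067), rho = 0.82 (adjusted permutation p = 0.00045) and r = 0.80 without the 2 farthest. Cyp8b1 and Cyp27a1, listed here under different pathways, had r = 0.71 (permutation p = 0.00022, adjusted 0.0025), rho = 0.62 (adjusted permutation p = 0.031) and r = 0.70 without the 2 farthest. Within groups that last r was 0.73 in ND+veh, 0.91 in HFD+veh and 0.06 in HFD+eRapa, so it was carried by the vehicle groups, while that of Slc27a5 and Abcb11 was 0.93, 0.96 and 0.83. On log2(FPKM + 1) 5 pairs passed, and 9 passed without ND+veh replicate 4 or without HFD+veh replicate 6, so the count rests in part on these libraries.

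Over all 24 libraries, groups included, the genes tested whose log2 CPM was most like that of each of 4 members were listed by Pearson's r as a description. For Cyp7b1 they were Susd4 (r = 0.95), Ces4a (0.95) and Hsd3b5 (0.93), and for Cyp39a1 they were Espn (0.91), Hamp2 (0.89) and Gmds (0.87). Bhmt2 (0.87), Dnajc28 (0.86) and Dmgdh (0.86) were closest to Cyp8b1. For Cyp7a1 the values were lower, with Mup22 (0.82), Slc22a3 (0.82) and Tmem69 (0.82), and the counts of Mup22 and Hamp2 are uncertain, since close copies of each exist. These values include the group differences and the libraries that stood apart.

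Around these 10 genes, 43 further genes of bile acid synthesis, transport and regulation were listed, of which 40 were tested (Ch25h, Slc51a and Gpbar1 were too low, at no more than 1.22, 0.525 and 0.134 CPM in any library). With the diet, 8 of the 40 fell and 0 rose in edgeR, with 0 higher at an unadjusted p under 0.05 and 0 higher by DESeq2 or limma. With rapamycin on the diet, 14 rose and 6 fell, and against ND+veh 8 rose and 7 fell in HFD+eRapa. The shares of all genes are those given above for each comparison. With the immune score as a covariate, 3 of the 8 kept their call with the diet and 13 of the 20 with rapamycin on it. All 15 kept theirs in HFD+eRapa against ND+veh, where 3 more passed (Hsd3b7, Mafg and Nr1h4, named here for that). Over all 13847 genes, that covariate took the calls from 3584 to 1197, from 4432 to 946 and from 1865 to 2776 in the 3 comparisons. The median log2 fold change of the 40 was -0.25, 0.31 and 0.01, beside 0.05, -0.04 and -0.03 over all genes.

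Among 13 other synthesis enzymes tested, 3 fell with the diet, 8 rose and 2 fell with rapamycin on it, and 7 rose and 3 fell in HFD+eRapa against ND+veh. The 8 that rose with rapamycin, named after their values were seen, were Sult2a8, Amacr, Acox2, Hsd17b4, Scp2, Slc27a2, Acot8 and Abcd3. Adjusted for the immune score, Amacr, Acox2 and Acot8 of these no longer passed (log2 0.37, 0.20 and 0.31, edgeR adjusted p = 0.14, 0.41 and 0.40). Scp2, the thiolase that shortens the side chain, had 2389 to 4296 CPM in ND+veh, 2711 to 4966 CPM in HFD+veh and 5342 to 8110 CPM in HFD+eRapa. Against HFD+veh its log2 fold change was 0.82 (SE 0.15, edgeR adjusted p = 0.00042). In CPM, HFD+eRapa overlapped neither vehicle group, as for 2.59% of all genes against HFD+veh and 3.37% against ND+veh. In FPKM it overlapped both, at 2380 to 3483 beside 1802 to 2534 in ND+veh and 1617 to 2625 in HFD+veh. The protein-coding gene Podn overlaps Scp2, so the counts of Scp2 are uncertain. Sult2a8, a bile acid sulfotransferase, fell by 1.096 with the diet (SE 0.31, edgeR adjusted p = 0.015) and rose by 1.97 with rapamycin on it (SE 0.32, edgeR adjusted p = 0.00017). With the immune score the first of these was -0.85 (edgeR adjusted p = 0.074). Cyp3a11, which hydroxylates bile acids and drugs, fell in both high-fat groups, with a mean of 2785 ± 2012 CPM (SD, n = 8) in ND+veh, 483 ± 304 CPM (SD, n = 7) in HFD+veh and 485 ± 223 CPM (SD, n = 9) in HFD+eRapa and log2 fold changes of -2.53 and -2.52 (edgeR adjusted p = 0.0014 and 0.00048). Cyp2c70, which makes muricholic acid in mice, fell by 0.94 in HFD+eRapa against ND+veh (SE 0.19, edgeR adjusted p = 0.0018). Reads of Cyp3a11 and Cyp2c70 may be shared with close relatives of their families.

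Hsd3b7, which acts in both pathways, read differently in counts and in FPKM. It fell with the diet in counts (log2 -1.28, SE 0.36, edgeR adjusted p = 0.013; with the immune score -0.63, adjusted p = 0.18), and HFD+eRapa against HFD+veh had 0.68 (SE 0.35, edgeR adjusted p = 0.14). In FPKM it was at 91 to 283 in HFD+veh, 238 to 449 in ND+veh and 254 to 389 in HFD+eRapa, and limma on log2(FPKM + 1) gave -0.82 (adjusted p = 0.0024) and 0.82 (adjusted p = 0.0018). Its counts were only 1.01 to 12.5 CPM, so that 1 CPM of Hsd3b7 was worth 59.5 FPKM at the median, where the 10 genes had 0.178 to 1.01. A protein-coding gene annotated on the same strand (Gm49388) overlaps Hsd3b7, and its counts here are therefore uncertain.

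Of 5 uptake carriers, 2 fell with the diet, 2 rose and 1 fell with rapamycin on it, and 1 fell in HFD+eRapa against ND+veh. Slco1a1, a sinusoidal organic anion carrier, had 95.7 to 565 CPM in ND+veh, 1.98 to 26.4 CPM in HFD+veh and 199 to 732 CPM in HFD+eRapa, with log2 fold changes of -5.41 (SE 0.58, edgeR adjusted p = 2.5e-06) and 5.80 (SE 0.59, edgeR adjusted p = 2.1e-06). Its relative Slco1a4 fell by 1.25 with rapamycin on the diet (SE 0.28, edgeR adjusted p = 0.0028). Slco1b2, named after its values were seen, was the other carrier to fall with the diet and rise with rapamycin (log2 -0.76 and 0.79). The main sodium-dependent carrier Slc10a1 did not pass the test, with log2 fold changes of -0.62, 0.36 and -0.26 (edgeR adjusted p = 0.093, 0.31 and 0.57). Among 9 efflux and canalicular transporters, 2 fell with the diet, 1 rose and 2 fell with rapamycin on it, and 1 rose and 2 fell in HFD+eRapa against ND+veh. Abcb4, the phospholipid transporter beside Abcb11 in the canalicular membrane, was the one that rose (log2 0.91, SE 0.12, edgeR adjusted p = 3.6e-05 against HFD+veh), again named after its values were seen. With the diet its log2 fold change was -0.36 (edgeR adjusted p = 0.037), and -0.39 with the immune score (edgeR adjusted p = 0.093).

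Of 13 regulators tested, 1 fell with the diet, 3 rose and 1 fell with rapamycin on it, and 1 fell in HFD+eRapa against ND+veh. The bile acid receptor Nr1h4 had log2 fold changes of 0.03, 0.32 and 0.35 (SE 0.13 to 0.14, edgeR adjusted p = 0.87, 0.074 and 0.075), and the third passed with the immune score (log2 0.33, edgeR adjusted p = 0.019). Nr5a2, an activator of Cyp7a1 and Cyp8b1, had -0.25, 0.12 and -0.13 (edgeR adjusted p 0.24 to 0.63). The receptor Fgfr4 and its partner Klb, through which the intestinal hormone Fgf15 represses Cyp7a1, had -0.36, 0.06 and -0.30 and -0.14, -0.26 and -0.41 (edgeR adjusted p 0.18 to 0.85). Onecut1, a hepatocyte transcription factor, fell by 1.69 with the diet (SE 0.57, edgeR adjusted p = 0.033) and rose by 2.38 with rapamycin on it (SE 0.58, edgeR adjusted p = 0.0042), at 2.18 to 15.2 CPM in HFD+veh and 4.48 to 81.6 CPM in HFD+eRapa. Neither call held with the immune score (log2 -1.39 and 1.78, edgeR adjusted p = 0.15 and 0.096).

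**Figure D5:**
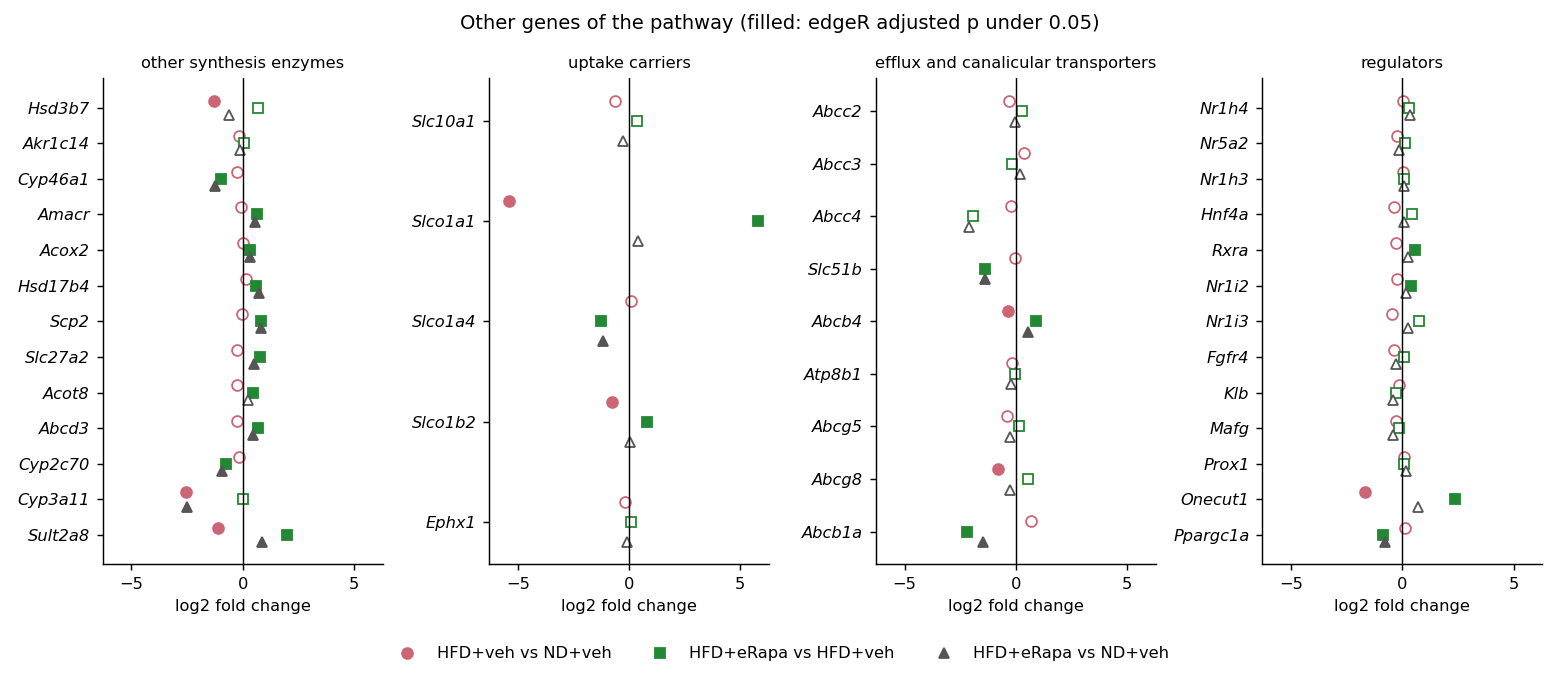
Log2 fold changes from edgeR of 40 other genes of bile acid synthesis, transport and regulation in the 3 comparisons (x axis), by group of genes. Filled symbols have an adjusted p under 0.05, and Slco1a1 moved farthest, by -5.41 with the diet and 5.80 with rapamycin on it.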

How the data were processed

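RNA was sequenced from isolated hepatocytes of 24 samples, grouped by their labels into ND+veh, HFD+veh and HFD+eRapa. Per the authors' methods, STAR aligned the reads (mm10, Gencode M23), and SAMtools 1.1.0 sorted and filtered them. The deposited counts are raw reads per gene, for which the authors used HTSeq 0.11.2, and the deposited FPKM, which scale fragments by transcript length and by depth, come from the authors' run of Cufflinks. Total counts were 17739252 to 25945134 per library. A chi-square test of the counts of each of 85 same-group pairs gave at least 11.3 per degree of freedom, so no library was counted as a copy of another.

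Counts of 13847 genes kept by filterByExpr were scaled by TMM and tested with edgeR 4.0.16 in R 4.3.3 (estimateDisp, glmQLFit robust, glmQLFTest), with all 24 libraries in 1 fit and no covariate, with Benjamini-Hochberg adjustment over all genes tested. CPM are on effective library sizes, and log2 CPM used a prior count of 2. The script was tested on simulated data. Levels of different genes were compared in FPKM, apart from Cyp7a1 and Cyp7b1, whose log2 CPM difference is also given as an alternative not scaled by length. Gene positions are from Gencode M21 (GRCm38), which holds 55154 of the 55421 identifiers, and promoters are from RefSeq.

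The 10 genes and the lists were chosen with earlier results of these data known. The 10 genes were always named, as were Nr1h4, Nr5a2, Fgfr4, Klb, Hsd3b7 and Slc10a1. In each comparison up to 4 more listed pathway genes were named (changed, mean log2 CPM of at least 3, largest absolute log2 fold change), with the clock-controlled genes that changed and the 3 genes most correlated with Cyp7a1, Cyp8b1, Cyp7b1 and Cyp39a1 (predicted genes left out). Alternatives were DESeq2 1.42.0, limma 3.58.1 on log2(FPKM + 1) and log2(FPKM + 0.1), DESeq2 size factors in edgeR, no filter, at least 10 counts in every library, the groups compared alone, the replicate number as a block, an immune marker score as a covariate, and each library left out in turn. A clock score as a covariate and the removal of both ND+veh replicate 4 and HFD+veh replicate 6 were added after the data were seen.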

Additional observations from a re-analysis of the deposited data

Results flagged for a closer look

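Within groups, 30 sets of log2 CPM (10 genes in 3 groups) were checked for a library far from the others by Dixon's 95% critical value, which chance alone exceeds in about 1 of 20 groups, or 1.5 of these 30. It was exceeded 3 times, each time by ND+veh replicate 4. Cyp27a1 stood at 8.21 log2 CPM there, against 9.20 to 9.58 in the other 7 ND+veh libraries. Slc27a5 was at 9.04, against 9.89 to 10.50 in the others. Abcb11 was at 9.22, against 10.20 to 10.45. The same library had the lowest hepatocyte marker sum of ND+veh, 59188 CPM, and its macrophage marker sum was 374 CPM. The part of cell composition or RNA quality in these values was not tested.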

How the results depend on the processing

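Of 30 tests of the 10 genes, 13 passed the threshold, and 8 of these kept it in all 35 alternatives. None of the 13 changed direction, and 3 tests that had not passed did so in at least 1 alternative. The number of the 10 genes changed between HFD+eRapa and HFD+veh went from 5 to 3 when the immune marker score was a covariate. Between HFD+eRapa and ND+veh it went from 4 to 2 with no filter on low counts. Over all genes, the first of these went from 4432 to 946 of 13847, and the second from 1865 of 13847 to 1391 of 30483. With single libraries left out, the number of the 10 genes changed ran from 4 to 4 for HFD+veh against ND+veh, 3 to 6 for HFD+eRapa against HFD+veh and 2 to 5 for HFD+eRapa against ND+veh. Of the 40 other pathway genes, the 8 changed with the diet became 5 with no filter, 5 with the groups compared alone, 3 with the immune marker score and 15 with the clock score. Over all genes, the 3584 changed with the diet became 2933 of 30483, 2333 of 13423, 1197 and 6437 in these settings. The 20 changed with rapamycin on the diet became 13 with the immune marker score. Without single libraries the counts of the 40 genes ran from 5 to 10, 15 to 23 and 12 to 15 in the 3 comparisons. Those over all genes ran from 2106 to 4479, 3269 to 5061 and 1462 to 2232. The 17 correlated pairs became 5 on log2(FPKM + 1), 9 by rank correlation and 9 to 17 without single libraries. As a log2 CPM difference, not scaled by length, the median Cyp7a1 to Cyp7b1 value was -1.95 in ND+veh, 0.12 in HFD+veh and -1.10 in HFD+eRapa, against -3.27, -1.09 and -1.99 in FPKM, so that the HFD+veh value changed sign.

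The fold changes of the 10 genes that changed sign were all ones that had not passed the test. For HFD+veh against ND+veh, Cyp7a1 went to 0.38, Cyp8b1 to 0.49, Baat to 0.026 and Nr0b2 to 0.15 with the immune marker score, Cyp8b1 to 0.078 with limma on log2(FPKM + 1) and 0.080 on log2(FPKM + 0.1), and Baat to 0.015 with at least 10 counts in every library and 0.042 with the clock score. For HFD+eRapa against HFD+veh, Slc27a5 went to -0.090 and Nr0b2 to -0.48 with the immune marker score, Slc27a5 to -0.033 without both ND+veh replicate 4 and HFD+veh replicate 6, and Nr0b2 to -0.014 with the clock score. Without single libraries Cyp8b1 ran from -0.17 to 0.20 and Baat from -0.098 to 0.021 in the first comparison, and Slc27a5 from -0.041 to 0.22 in the second. The cause was not tested.

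With the replicate block (the replicate number of the labels, over the numbers both groups share), 4, 5 and 3 of the 10 genes changed in the 3 comparisons. Of the other pathway genes, 5 changed with the diet. Over all 13847 genes, 2461, 2532 and 1575 changed in the 3 comparisons. Cyp7b1 in HFD+eRapa against ND+veh (log2 0.81, edgeR adjusted p = 0.10) and Akr1d1 in HFD+eRapa against HFD+veh (log2 -0.49, edgeR adjusted p = 0.057) no longer passed, and Cyp7a1 in HFD+eRapa against HFD+veh did (log2 1.87, edgeR adjusted p = 0.020). After removal of group means, same-numbered libraries of HFD+veh and ND+veh had a mean correlation of 0.32 (-0.36 to 0.73), with replicates 1, 2 and 4 at 0.73, 0.59 and 0.60. The mean was -0.20 (-0.52 to 0.37) for HFD+eRapa with ND+veh and -0.24 (-0.66 to 0.49) for HFD+eRapa with HFD+veh. The sign varied within each comparison, and the numbers were not taken to pair animals. Whether the replicate number follows a condition shared by the vehicle groups was not tested. The precision of each value is limited by 7 to 9 libraries in a group.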
